A study of Homo sapiens with 6 samples.

Results

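The genes described here encode the aminoacyl-tRNA synthetases, the enzymes that join each amino acid to its transfer RNA (tRNA) before translation. They were taken by symbol, as names of the form letter-ARS with or without a final 2, together with EPRS, FARSA and FARSB. The rule found 34 genes among 16571 symbols, of which 17 carry the suffix 2 and are called mitochondrial, and 17 do not and are called cytosolic. CARS, HARS and FARSB were not analysed here. Human cells translate in the cytosol and in mitochondria, and for most amino acids separate nuclear genes supply the synthetase of each compartment. GARS and KARS serve both, and no suffix 2 gene exists for QARS, since mitochondrial glutaminyl-tRNA is made by amidation of glutamyl-tRNA. Several cytosolic enzymes are held together in the multisynthetase complex, and many cytosolic synthetase genes are known targets of ATF4, the transcription factor of the amino acid response.

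RNA-seq was performed on A2780, an established human cell line labelled as serous ovarian cancer. All 6 libraries came from cells infected with lentivirus, 3 with the control vector pGIPZ-NC and 3 with a short hairpin RNA against USP39 (shUSP39), a protein of the spliceosome. By the study's methods the hairpins sat in the pGIPZ vector and stable lines were selected with puromycin, so both groups are drug-selected populations. Which hairpin the shUSP39 libraries carried is not stated. The comparison asks how depletion of a splicing factor alters the transcriptome.

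The libraries held between 28294819 and 32939264 counts, and USP39 was not analysed here, so the knockdown itself was not examined. A count in at least 1 transcript was found for 15446 and 14890 genes in shUSP39 2 and 3, against 12819 in shUSP39 1 and 12662 to 12809 in pGIPZ-NC. Results that rest on shUSP39 2 and 3 are therefore also given without them. That fit keeps a single shUSP39 library and called fewer genes of all. Its counts of calls are thus not comparable with those of the main fit or with the shares over all genes. Of the markers of ovarian carcinoma, PAX8, MSLN and EPCAM lay between 0 and 0.203 CPM (counts scaled to library size) in every library, CDH1 at 0.0327 CPM or less, and MUC16 reached 4.90 and 2.40 CPM only in shUSP39 2 and 3. The intermediate filament gene VIM stood between 10717 and 11359 CPM. Of the keratin genes, KRT18 lay between 20.8 and 36.3 CPM and rose by 0.56 in log2 units, while KRT19 fell by 3.64 and KRT8, at 1.14 CPM or less, fell by 4.76. PTPRC, PECAM1 and ALB, markers of blood, endothelium and liver, were at 0.229 CPM or less. Of the fibroblast markers, COL1A1 lay between 5.84 and 8.67 CPM, and DCN, at 1.73 CPM or less, fell by 3.81. CDH2, listed with VIM as mesenchymal, lay between 0.345 and 1.49 CPM. Reads shared between transcripts of a gene may be missing from the counts, as described below. A low CPM therefore does not show that a marker was absent. In bulk RNA, fewer expressing cells and less RNA per cell cannot be told apart. The labels call the libraries biological triplicates without saying how the cultures were separated, and p-values measure only the spread between them.

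Synthetase transcripts took a smaller share of the counts in shUSP39. They made up 0.655% to 0.661% of a library's counts in pGIPZ-NC and 0.603% to 0.615% in shUSP39, without overlap. Of the 34 genes, 31 passed the filter on low counts. Among these, 8 fell (QARS, VARS, CARS2, IARS2, NARS, LARS2, EPRS and RARS) and 2 rose (AARS and WARS) at an adjusted p under 0.05. Over all 10695 genes tested, 17.5% fell and 16.1% rose, so that 25.8% of the tested synthetase genes lay on the lower side and 6.45% on the higher side. No synthetase gene changed over 2-fold, where 2.28% of all genes fell and 4.53% rose that far. The median log2 fold change, shUSP39 over pGIPZ-NC, was -0.08 for synthetase genes and 0.01 for all genes, and 24 of the 31 values were negative. Without shUSP39 2 and 3 together, the median was -0.11 for the cytosolic and -0.16 for the mitochondrial genes. The 3 libraries of 1 group lay entirely below those of the other in 11 genes and entirely above in 3, against 22.5% and 21.7% of all genes.

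**Figure D1:**
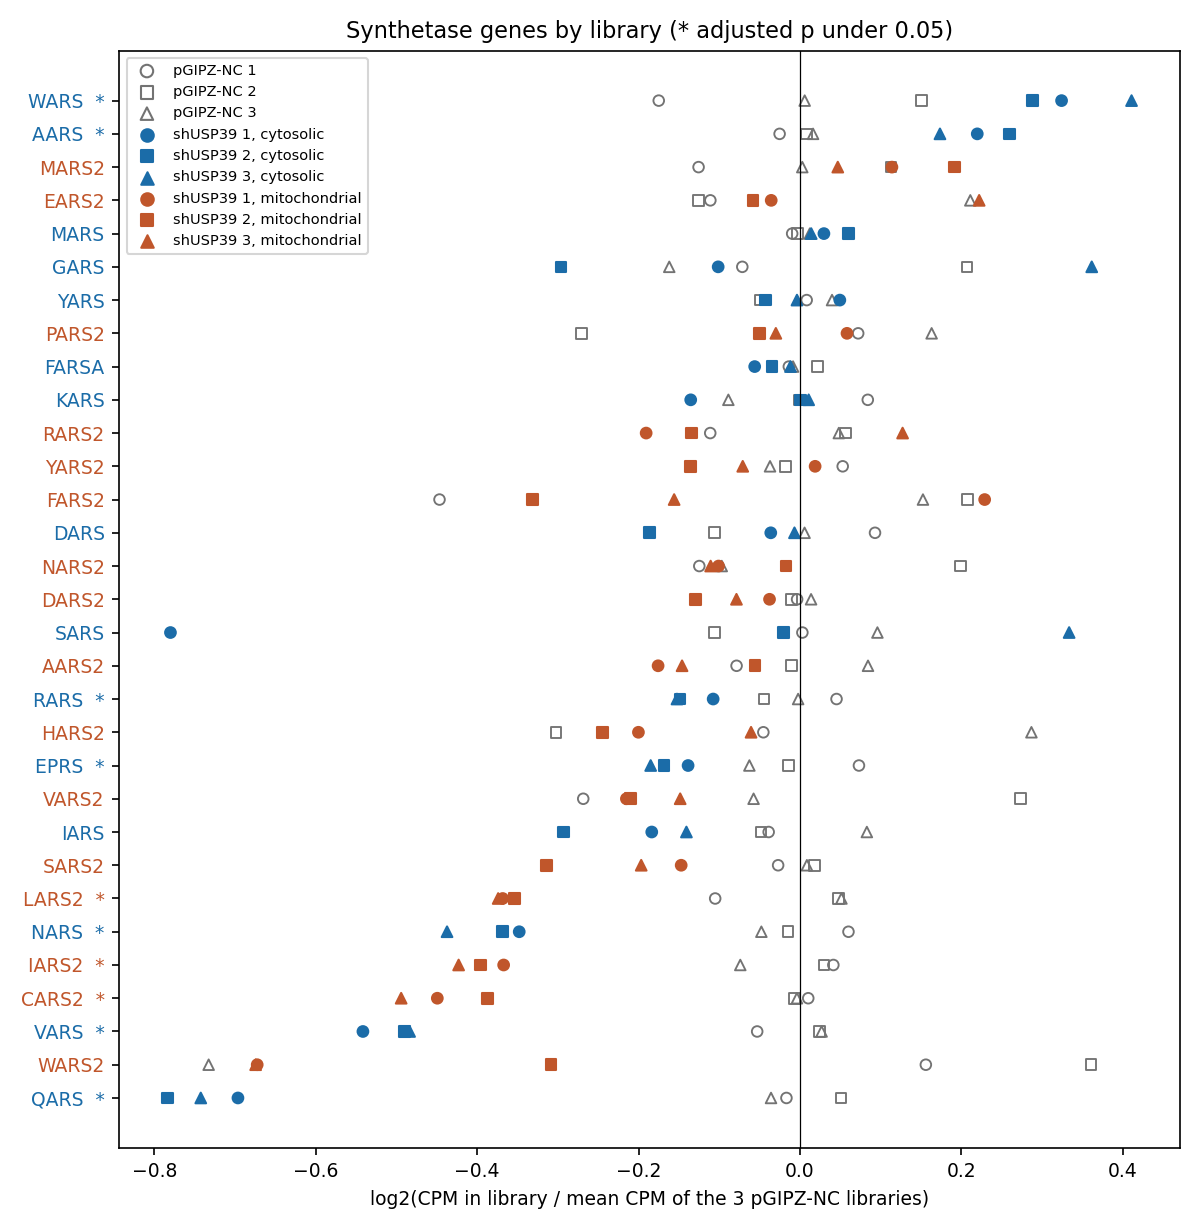
Level of each of the 31 tested synthetase genes in each library, as log2 of its CPM over the mean CPM of the 3 pGIPZ-NC libraries, with open symbols for pGIPZ-NC and filled symbols for shUSP39, blue for cytosolic and orange for mitochondrial genes. Filled symbols of QARS, VARS, CARS2, IARS2, NARS and LARS2 sit to the left of all open symbols of the same gene, and those of AARS and WARS to the right.

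The counts behind these values differed with the number of RefSeq transcripts of a gene. The 13 members with 1 RefSeq transcript had a median of 15683.5 counts per library, and the 21 with several had 287.5. Of the 15 members with over 2000 counts, 12 have 1 transcript, and the 13 single-transcript genes took 89.5% of all synthetase counts. Reads shared between transcripts of a gene may thus have been left out of the table, and whether they were was not tested. LARS had at most 3 counts in a library and TARS2 at most 2, so no fold is given for either. TARS had 9, 1 and 4 counts in pGIPZ-NC and 6, 1 and 1 in shUSP39, and did not pass the filter. Levels can be compared between genes only among the 13, per kilobase of the reference transcript. On that scale FARSA, a subunit of phenylalanyl-tRNA synthetase, was highest in pGIPZ-NC with 350 CPM per kilobase, and the 8 cytosolic genes ranged from there down to 150 in VARS. The 5 mitochondrial genes ranged from 171 in IARS2 to 8.68 in PARS2.

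Among the enzymes of the multisynthetase complex, 3 of 7 tested fell and 0 rose in edgeR, DESeq2 and limma-voom alike. At an unadjusted p under 0.05 in edgeR, 4 fell and 0 rose, where 2282 and 2135 of all 10695 genes tested did. At the adjusted threshold 17.5% of all genes fell and 16.1% rose, and the median log2 fold change of the complex was -0.14. The number that fell was 2 with upper-quartile scaling and 2 without shUSP39 2 and 3 together. QARS, glutaminyl-tRNA synthetase (chr3:49133365-49142563, minus strand, GRCh37, 24 exons), had 30.6, 32.0 and 30.2 CPM in pGIPZ-NC against 19.1, 18.0 and 18.5 CPM in shUSP39. Every shUSP39 library lay well below every control. It had the largest decrease among the 31 genes and fell by 0.74 in log2 units (SE 0.085) with an adjusted p of 9.35e-08. These values come from 1 of its transcripts and 547 to 1041 counts per library.

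EPRS and RARS moved less, and both are described because they passed the test, after their values were seen. EPRS, which joins glutamyl- and prolyl-tRNA synthetase in a single protein, had 1004, 945 and 914 CPM in pGIPZ-NC against 867, 849 and 840 CPM in shUSP39. The groups did not overlap, and it fell by 0.16 (SE 0.034, adjusted p 0.000374). RARS, arginyl-tRNA synthetase, had 400.1, 376 and 387 CPM against 360 (shUSP39 1), 350 (shUSP39 2) and 349 CPM (shUSP39 3), again without overlap. It fell by 0.14 (SE 0.036, adjusted p 0.00407), but the adjusted p was 0.0516 with upper-quartile scaling and 0.173 without shUSP39 2 and 3.

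The other complex members tested gave no call. IARS, isoleucyl-tRNA synthetase (chr9:94972489-95056136, minus strand, 34 exons) and the cytosolic partner of IARS2, had 23.1, 23.0 and 25.2 CPM in pGIPZ-NC against 20.9, 19.4 and 21.6 CPM in shUSP39. All shUSP39 libraries were lower, and the log2 fold change was -0.20 (SE 0.090) at an adjusted p of 0.0864. The log2 fold changes of DARS, KARS and MARS, for aspartate, lysine and methionine, were -0.07, -0.04 and 0.03. The only KARS transcript in the table is NM_001130089.1, which is known to code for the mitochondrial form.

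Outside the complex, 8 cytosolic genes were tested, of which VARS and NARS fell and AARS and WARS rose, with a median of -0.02. Over all 10695 genes tested, 17.5% fell and 16.1% rose. VARS, the valyl enzyme that is known to associate with elongation factor 1 (chr6:31745295-31763529, minus strand, 30 exons), had 594, 627 and 628 CPM in pGIPZ-NC against 424, 439 and 441 CPM in shUSP39. The lowest control stood far above the highest shUSP39 library. VARS fell by 0.50 (SE 0.035, adjusted p 5.79e-12), on at least 13049 counts in every library. NARS, the asparaginyl enzyme (chr18:55267888-55289445, minus strand, 14 exons), had 522, 495 and 484 CPM in pGIPZ-NC against 393, 388 and 369 CPM in shUSP39. The groups did not overlap, and NARS fell by 0.38 (SE 0.037, adjusted p 4.27e-09).

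AARS and WARS were the synthetase genes that rose. WARS, the tryptophanyl enzyme, which interferon gamma is known to induce (chr14:100800127-100843142, minus strand, 11 exons), had 16.8, 21.0 and 19.0 CPM in pGIPZ-NC against 23.7, 23.1 and 25.2 CPM in shUSP39. All 3 shUSP39 libraries were above the controls, of which pGIPZ-NC 1 was the lowest. WARS rose by 0.34 (SE 0.097, adjusted p 0.00687), and the call was lost without pGIPZ-NC 1 (log2 fold change 0.26, adjusted p 0.0575) and without shUSP39 2 and 3 together (0.32, adjusted p 0.108).

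AARS, the alanyl enzyme (chr16:70285886-70323610, minus strand, 21 exons), is named for its call after its values were seen. It had 688, 704 and 708 CPM in pGIPZ-NC against 815, 838 and 789 CPM in shUSP39. The groups were clearly apart, and AARS rose by 0.22 (SE 0.032, adjusted p 5.20e-06). Exons of AARS overlap DDX19B and those of WARS overlap WDR25, both on the opposite strand, but DDX19B had a mean of 0.0443 CPM in pGIPZ-NC against 0.0109 in shUSP39, and WDR25 of 0.708 and 0.689. None of the 8 genes that fell overlaps exons of another coding gene in the annotation. The remaining genes outside the complex, FARSA, YARS, GARS and SARS, had log2 fold changes of -0.03, 0.00, 0.01 and -0.09.

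Of the 16 mitochondrial genes tested, 3 fell (18.8%, against 17.5% of all genes) and 0 rose (against 16.1%), with a median log2 fold change of -0.10. The share that fell was thus near that of all genes. At an unadjusted p under 0.05 in edgeR, 4 were lower and 0 higher, where 2282 and 2135 of all 10695 genes tested were. DESeq2 and limma-voom called 0 higher after adjustment. IARS2, the mitochondrial isoleucyl enzyme and the highest per kilobase of the 5 with 1 RefSeq transcript (chr1:220267474-220321383, plus strand, 23 exons), had 620, 615 and 572 CPM in pGIPZ-NC against 467, 458 and 449 CPM in shUSP39. The groups were far apart. IARS2 fell by 0.40 (SE 0.036, adjusted p 1.38e-09).

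LARS2, the mitochondrial leucyl enzyme (chr3:45430053-45596218, plus strand, 22 exons), had 192, 213 and 213 CPM in pGIPZ-NC against 160 (shUSP39 1), 161 (shUSP39 2) and 159 CPM (shUSP39 3). The shUSP39 libraries were nearly equal and all lower, and LARS2 fell by 0.37 (SE 0.046, adjusted p 3.60e-07). CARS2, the mitochondrial cysteinyl enzyme (chr13:111293759-111365950, minus strand, 15 exons), had 125.6, 124.1 and 124.4 CPM in pGIPZ-NC against 91.3, 95.3 and 88.5 CPM in shUSP39. Its controls were nearly equal and all higher, and CARS2 fell by 0.44 (SE 0.050, adjusted p 7.00e-08).

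WARS2 shows what low counts allow. The mitochondrial tryptophanyl enzyme (chr1:119573839-119683277, minus strand, 6 exons) had 0.72, 0.83 and 0.39 CPM in pGIPZ-NC against 0.41, 0.52 and 0.41 CPM in shUSP39. The groups overlapped, and its log2 fold change of -0.54 (SE 0.53), with an adjusted p of 0.476, was not distinguishable from 0 at these counts. VARS2, the partner of VARS (chr6:30881982-30894236, plus strand, 30 exons), had 3.76, 5.48 and 4.35 CPM against 3.90, 3.92 and 4.09 CPM, with overlap and a log2 fold change of -0.19 (SE 0.20) at an adjusted p of 0.496. NARS2, the partner of NARS (chr11:78146666-78286239, minus strand, 14 exons), had 18.4, 23.0 and 18.7 CPM against 18.7, 19.8 and 18.6 CPM, with overlap and a log2 fold change of -0.08 (SE 0.10). The 10 other mitochondrial genes tested lay between -0.22 in SARS2 and 0.12 in MARS2. Among these, AARS2 was nearest to the threshold, with -0.12 and an adjusted p of 0.0575, and it passed under 4 of 16 alternatives.

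The mitochondrial class lost a larger part of its summed CPM than the cytosolic class. These sums pool genes with 1 and with several RefSeq transcripts, and reads of the latter may be missing. The sums and their ratio therefore do not give the true levels of the classes. Summed over the 17 genes of each class, the cytosolic genes gave 5051 ± 36.9 CPM in pGIPZ-NC against 4714 ± 37.6 CPM in shUSP39, and the mitochondrial genes 1592 ± 18.8 and 1342 ± 18.6 CPM (SD, n = 3 each). The sums fell by 6.66% and 15.7%. The ratio of the cytosolic to the mitochondrial sum was 3.22, 3.12 and 3.18 in pGIPZ-NC and 3.49, 3.52 and 3.53 in shUSP39, without overlap. A few genes with many counts carried these sums, among them LARS2 and CARS2, which have 2 and 3 RefSeq transcripts. The mitochondrial sum fell by 250.02 CPM, while IARS2 fell by 144 CPM, LARS2 fell by 46.1 CPM and CARS2 fell by 33.0 CPM, and the 14 other genes went from 659 to 632 CPM together. The cytosolic sum fell by 336 CPM, while VARS fell by 182 CPM, NARS fell by 117 CPM and EPRS fell by 103 CPM, and AARS rose by 114 CPM. By the median gene the difference between the classes was within its error, since the cytosolic median exceeded the mitochondrial one by 0.03 with an SD of 0.045 between libraries, and the difference ran from -0.020 (without pGIPZ-NC 2) to 0.13 (without pGIPZ-NC 1) when 1 library was left out, with 0.10 without shUSP39 1, and was -0.024 among single-transcript genes.

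Both genes could be set side by side for 13 pairs that read the same amino acid. The ratio separated the groups in 3, with 2 lower and 1 higher in shUSP39. Single genes did so in 22.5% (lower) and 21.7% (higher) of all genes tested, and no such share was computed for ratios of other genes. The log2 ratio of VARS to VARS2 was 7.11 ± 0.24 in pGIPZ-NC against 6.77 ± 0.029 in shUSP39, and that of NARS to NARS2 was 4.65 ± 0.20 against 4.33 ± 0.054 (SD, n = 3 each). Both ratios were lower in every shUSP39 library, but narrowly. The lowest pGIPZ-NC library stood at 6.84 and 4.43, and the highest shUSP39 library at 6.81 and 4.40. The log2 ratio of AARS to AARS2 was 2.27 ± 0.063 in pGIPZ-NC against 2.62 ± 0.045 in shUSP39 (SD, n = 3 each), higher in every shUSP39 library. In the isoleucyl pair the ratio changed by 0.19, and in the tryptophanyl pair by 0.83, and in both the groups overlapped. The aspartyl and phenylalanyl pairs changed by 0.01 and 0.02. Ratios of a gene with several transcripts to a gene with 1 do not give the true proportion of the enzymes, and only their change between groups is described.

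**Figure D2:**
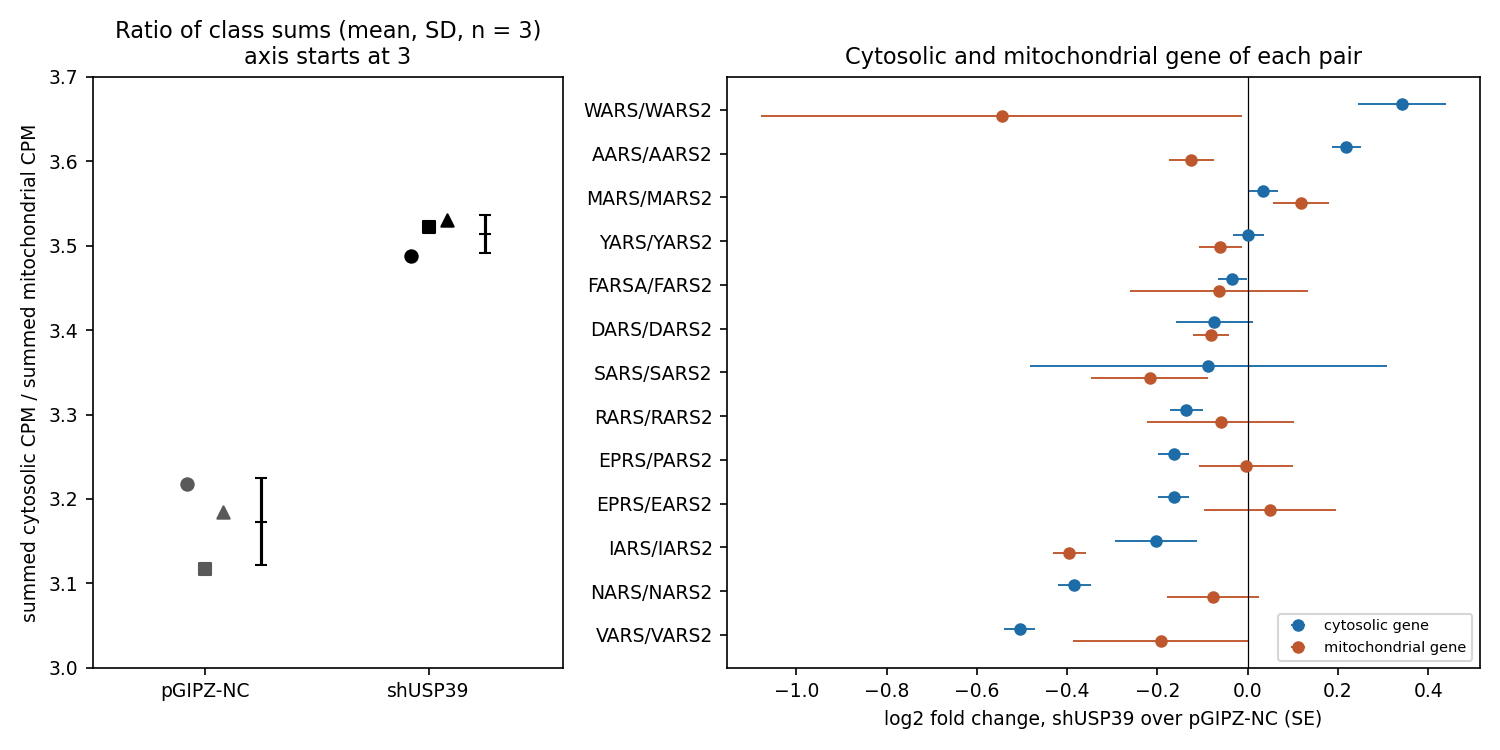
Left, the summed CPM of the cytosolic genes over that of the mitochondrial genes in each library, with the mean and SD (n = 3) as bars, on an axis that starts at 3. Right, the log2 fold change of the cytosolic (blue) and mitochondrial (orange) gene of each of 13 pairs, with its SE. The 3 shUSP39 ratios sit between 3.49 and 3.53 and the pGIPZ-NC ratios between 3.12 and 3.22, and the wide bar of WARS2 belongs to a gene with under 1 CPM.

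The genes that fell had more exons than most tested genes. The median exon number of the reference transcript was 9 over all tested genes, 15 over the tested synthetase genes, 22.5 over the 8 that fell (from 14 in NARS to 32 in EPRS) and 14 over those that did not pass. Across the 31 synthetase genes, Spearman's rho between log2 fold change and exon number was -0.44, and it was -0.56 over the 13 with 1 RefSeq transcript and -0.12 over 10602 tested genes with an annotation. The points share the same 6 libraries and genes are not replicates, so these are descriptions. MARS2, which has 1 exon, and PARS2, which has 2, had log2 fold changes of 0.12 and -0.0044, while AARS rose with 21 exons and AARS2, with 22, had -0.12.

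**Figure D3:**
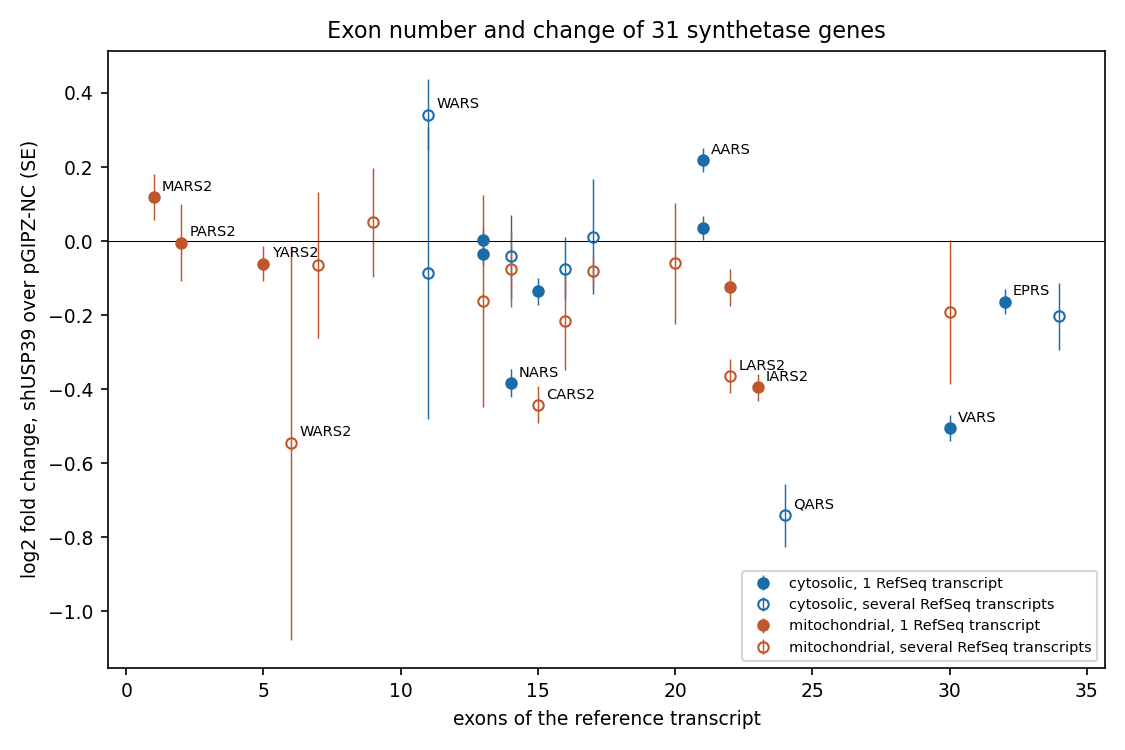
Log2 fold change (shUSP39 over pGIPZ-NC, with its SE) of the 31 tested synthetase genes against the number of exons of the reference transcript, with filled points for genes with 1 RefSeq transcript. MARS2, PARS2 and YARS2, with 1, 2 and 5 exons, sit between -0.06 and 0.12, and VARS, QARS, IARS2 and LARS2 lie below 0 at 22 exons or more.

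Many cytosolic synthetase genes belong to the amino acid response, in which ATF4 binds a C/EBP-ATF response element. Of the 12 synthetase genes listed for that response, 9 were tested, of which AARS and WARS rose and NARS and EPRS fell, where 16.1% and 17.5% of all genes did, and the median log2 fold change was 0.00. The 6 cytosolic genes outside the list had 3 falls, 0 rises (0 also at an unadjusted p under 0.05 in edgeR) and a median of -0.11. Other genes of the ATF4 branch went mostly up. Of 21 tested, 12 rose and 1 fell, against 16.1% and 17.5% of all genes, with a median of 0.36. From 10 to 12 rose when any 1 library was left out.

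Among the ATF4 genes that reached 5 CPM in 1 group or both (CHAC1 only in shUSP39), PPP1R15A, whose product directs dephosphorylation of eIF2 alpha, rose from 60.4 ± 1.11 to 132 ± 5.16 CPM and CHAC1, a glutathione-degrading enzyme, from 4.74 ± 0.85 to 10.3 ± 1.12 CPM (SD, n = 3 each). SESN2, a stress-induced inhibitor of mTORC1, rose from 45.9 ± 1.90 to 90.4 ± 1.16 CPM and SLC7A11, the cystine transporter, from 36.9 ± 1.42 to 69.8 ± 2.66 CPM (SD, n = 3 each). ATF4 itself had 19.2 ± 0.53 and 19.3 ± 0.44 CPM (SD, n = 3 each), and its log2 fold change was 0.01 (adjusted p 0.936), and PSAT1, a serine synthesis enzyme, fell by 0.25. The rise of these ATF4 genes was thus seen beside rises in 2 and falls in 2 of the 9 synthetase genes of the same response.

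The promoters were searched for this element. RefSeq promoters (GRCh38.p14, 250 bases before to 50 after the start) were matched for 27 of the 34 genes. The letters TGATGNAA, on either strand, occur in 3.62% of 35116 promoters and in a promoter of 4.46% of 27305 genes, and they were found in 6 of 9 matched synthetase genes of the response (AARS, GARS, IARS, MARS, NARS and TARS) and in 1 of 18 others (YARS2). Of these 7 genes, AARS rose, NARS fell, TARS was not tested and the other 4 gave no call. The matches of the 6 are shown with 11 bases on either side, on the strand of the gene, with the element in capitals. NARS holds TGATGNAA as written, and the others hold its reverse complement, TTNCATCA. Whether the element bears on the changes was not tested.

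AARS, chr16:70289675-70289704, minus strand, first base 187 before the start: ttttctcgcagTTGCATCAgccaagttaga
NARS, chr18:57621804-57621833, minus strand, from base 15 after the start: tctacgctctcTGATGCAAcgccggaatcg
MARS, chr12:57488053-57488082, plus strand, 4 before the start: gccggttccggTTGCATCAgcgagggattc
IARS, chr9:92293692-92293721, minus strand, 13 before the start: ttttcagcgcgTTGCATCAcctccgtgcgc
GARS, chr7:30594834-30594863, plus strand, 33 before the start: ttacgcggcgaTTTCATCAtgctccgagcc
TARS, chr5:33440956-33440985, plus strand, from base 3 after the start: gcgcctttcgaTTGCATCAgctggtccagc

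WARS was set beside interferon genes because interferon gamma is known to induce it. The interferon-stimulated response element, searched by its letters on either strand, occurs in 3.57% of promoters and 4.38% of genes, and among the matched synthetase genes in WARS and EARS2. WARS is shown because it had the largest rise, and the window was taken from a start that holds the match. The 250 bases before that WARS start (GRCh38.p14, chr14:100375348-100375597, minus strand) are printed with the match in capitals. Its first base lies 55 before the start.

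WARS: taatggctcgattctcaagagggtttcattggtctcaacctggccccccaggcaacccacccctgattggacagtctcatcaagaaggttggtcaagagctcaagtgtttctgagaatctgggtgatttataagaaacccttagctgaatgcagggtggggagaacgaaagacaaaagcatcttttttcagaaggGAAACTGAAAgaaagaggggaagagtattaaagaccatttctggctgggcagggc

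Of 8 interferon-induced genes listed beside it, 6 were tested, 5 rose and 1 fell (16.1% and 17.5% over all genes), and 3 rose without shUSP39 2 and 3 together. The ubiquitin-like modifier ISG15 had a log2 fold change of 2.97, the transcription factors IRF9 and IRF1 had 0.44 and 0.41, and the guanylate-binding protein gene GBP1 fell by 0.42 (SE 0.049). The log2 fold change of WARS, 0.34, was below those of ISG15, IRF9 and IRF1. A match in a promoter is a description of its letters and does not show binding.

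Genes that work beside the synthetases moved in both directions. Of 13 accessory genes, which cover scaffold proteins of the multisynthetase complex, editing and selenocysteine enzymes and the mitochondrial amidation enzyme, 12 were tested, 4 fell and 1 rose (17.5% and 16.1% over all genes), with a median log2 fold change of -0.06. From 2 to 3 fell when any 1 library was left out, with 2 without pGIPZ-NC 1, pGIPZ-NC 2 or shUSP39 3, and 1 fell and 0 rose without shUSP39 2 and 3 together. GATB, a subunit of the amidotransferase that supplies mitochondrial glutaminyl-tRNA, had 63.0, 65.5 and 67.9 CPM in pGIPZ-NC against 53.03, 53.04 and 53.6 CPM in shUSP39. Its groups did not overlap, and it fell by 0.30 (SE 0.061). QRSL1, another subunit of the amidotransferase, had -0.07 without a call. EEF1E1, a scaffold subunit of the complex, fell by 0.22, while the scaffold genes AIMP1 and AIMP2 had -0.0020 and 0.06 without a call. PSTK, a kinase of selenocysteinyl-tRNA synthesis, fell by 0.28. AARSD1, an editing protein related to alanyl-tRNA synthetase, fell by 0.66 (SE 0.21) from 4.31 ± 0.65 to 2.73 ± 0.24 CPM, and TARSL2, a second cytosolic threonyl enzyme, rose by 0.34 (SE 0.081) from 27.1 ± 1.56 to 34.3 ± 2.06 CPM (SD, n = 3 each). Of 10 genes of elongation factors, their exchange factors and translocases, EEF1A2 rose by 0.12 and EEF1B2 by 0.21, 0 fell (0 also at an unadjusted p under 0.05 in edgeR), and the median was 0.07. These 2 of 10 are close to the 16.1% of all genes that rose, and 1 rose when any 1 library was left out and 0 without shUSP39 2 and 3 together.

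**Figure D4:**
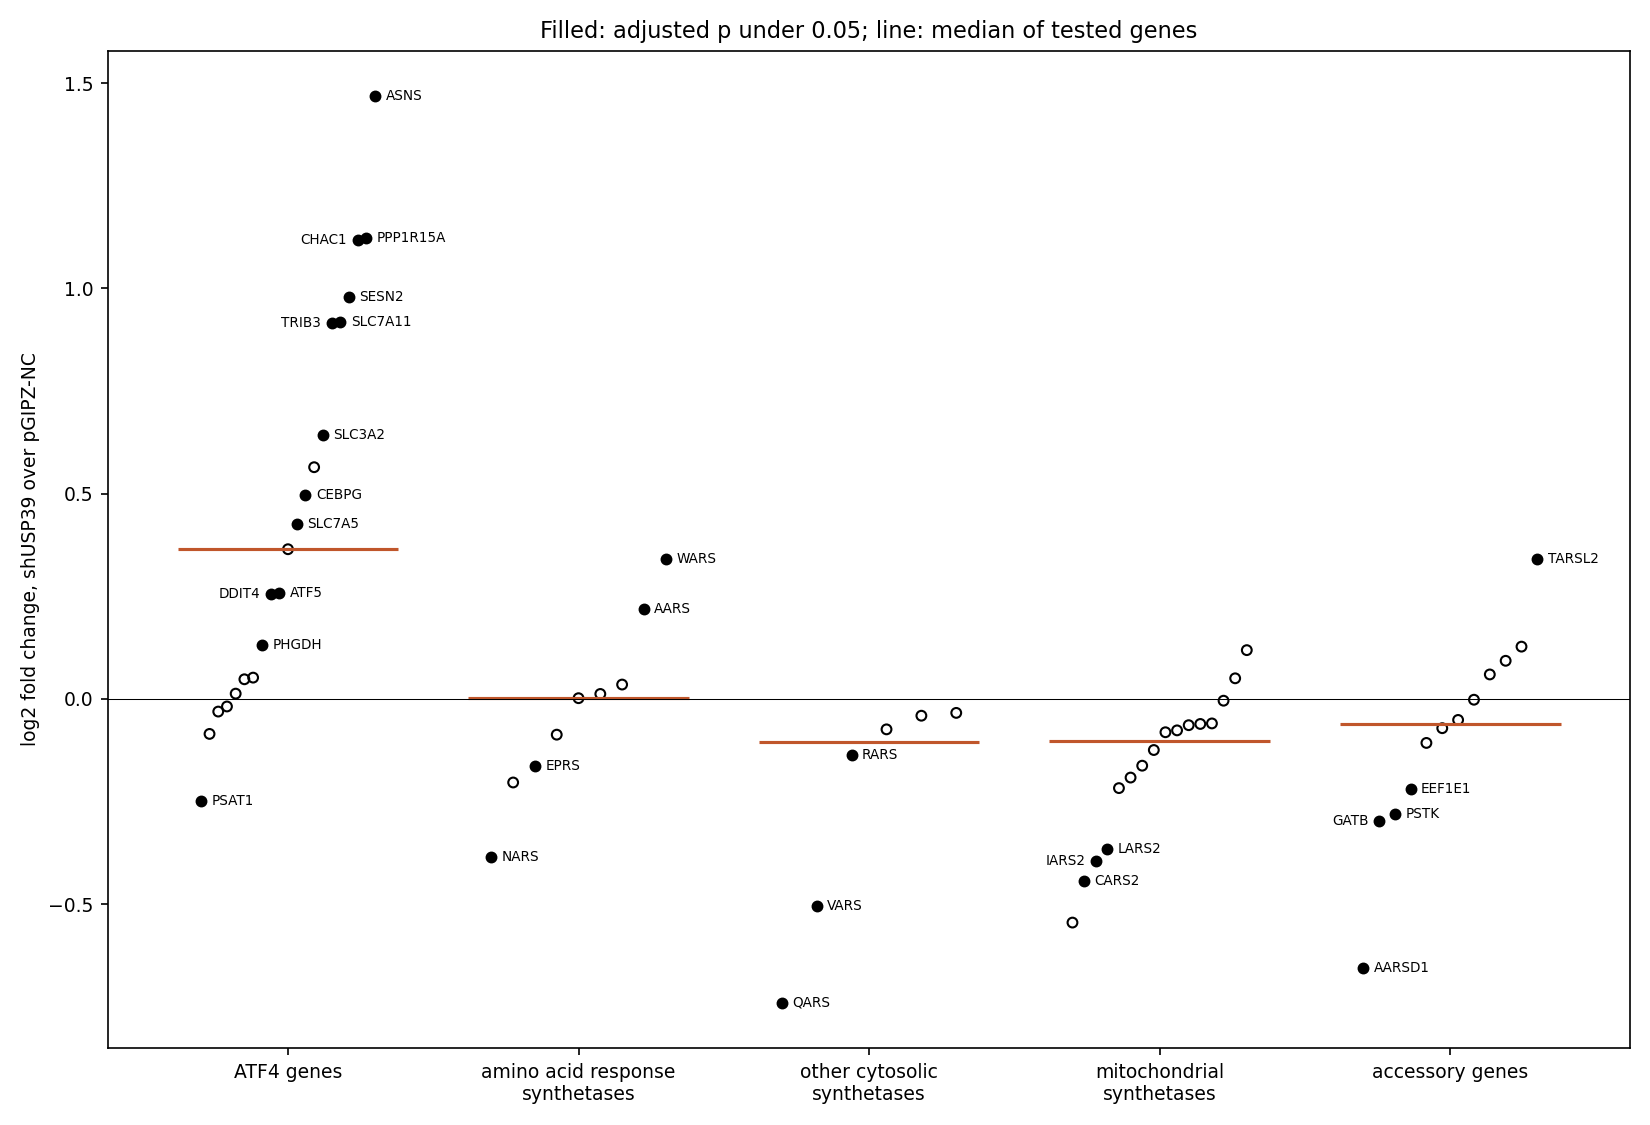
Log2 fold change (shUSP39 over pGIPZ-NC) of each tested gene of the ATF4 list, of the synthetase genes in and outside the amino acid response list, of the mitochondrial synthetase genes and of the accessory genes. Filled points passed an adjusted p of 0.05, and the orange line is the median of each list, which is 0.36 in the ATF4 genes and 0.00 in the synthetase genes of the same response.

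The table lists transcripts, so the genes with several could be split. Of 12553 transcripts tested, 14.2% were higher and 15.1% lower, and the synthetase transcripts past the threshold belonged to the same 10 genes. In WARS, both transcripts had a call. NM_004184.3 rose by 0.52 (SE 0.18, adjusted p 0.0314) from 4.02 ± 0.67 to 5.78 ± 0.32 CPM, and NM_173701.1 rose by 0.29 (SE 0.11, adjusted p 0.0412) from 14.9 ± 1.46 to 18.2 ± 1.37 CPM (SD, n = 3 each). Each of these calls was lost in 4 of the 6 fits that left out 1 library. The share of transcripts within a gene was tested in WARS, FARS2, SARS2 and HARS2, and none passed, with adjusted p-values of 0.654, 0.581, 0.881 and 0.996 in edgeR's test of transcript usage, and none had an unadjusted p under 0.05. Over all genes in that test, 4.98% passed.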

How the data were processed

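Total RNA of 3 pGIPZ-NC and 3 shUSP39 A2780 cultures was sequenced. The authors deposited 1 table of read counts per RefSeq transcript. HISAT2, Cufflinks and hg19 are named in the submitters' processing notes, and which tool made the counts, and whether strand was used, is not given in the sources used here. Group means, fold changes, p-values and q-values in the table are the authors' and were not used, and 0 other columns of per-sample values were left out. Counts were summed per symbol (21368 rows, 16571 symbols, 46 date-like symbols replaced by accession and 1 left). The filter was filterByExpr, the scaling TMM, and genes were tested with the robust quasi-likelihood test of edgeR 4.0.16 (R 4.3.3), with group as the only term and all 6 libraries. P-values were adjusted by Benjamini-Hochberg over the 10695 genes tested, with a threshold of 0.05. Beside it the study's limit of 2-fold was applied. Transcript usage was tested with diffSpliceDGE. CPM are counts scaled to the TMM-adjusted library size. A gene with at most 3 counts in each library of a group was held to be at the floor.

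Values per library are given for the 8 synthetase genes with the largest change (since fewer than 8 passed both the test and a log2 change of 0.5) and for their partners in the other compartment. Of other lists, up to 4 called genes with at least 5 CPM are named, and exceptions to either rule, AARSD1, ATF4, PSAT1, TARSL2, GBP1 and some others among them, were chosen after their values were seen. The synthetase genes and all lists were chosen with earlier results of these data known. Coordinates, exon numbers and lengths came from GENCODE release 44 on GRCh37, by the MANE Select or longest coding transcript. No protein sequences were compared. The fits were tested on simulated data with changes of 2-fold or more, larger than any called synthetase change. The gene fit recovered 190 of 197 such changes, with 16 false calls. Changes as small as those of the synthetase genes were not simulated. Alternatives used limma 3.58.1 and DESeq2 1.42.0, other scalings and filters, the replicate block, and libraries left out. One gene of the interferon list is not reported here.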

Additional observations from a re-analysis of the deposited data

How the results depend on the processing

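Across 16 alternatives, 8 of the 10 called genes kept direction and side of the threshold, and RARS and WARS did not, as given above. AARS2 passed with no filter (adjusted p 0.0376), with the replicate block (0.0160), without pGIPZ-NC 1 (0.0188) and without shUSP39 2 (0.0354), and MARS2 passed with upper-quartile scaling (0.0455), where its log2 fold change was 0.16. The cause of these differences was not tested. Scaling matters for changes this small. Upper-quartile scaling moved the median of all genes from 0.01 to 0.05 and the split of calls from 1726 higher and 1872 lower to 2077 and 1501. With no filter the median was 0.12.

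The number of synthetase genes that rose ran from 1 to 2 across fits without 1 library, and was 1 without shUSP39 2 and 3 together, 1 among the members with 1 RefSeq transcript (an alternative chosen after seeing the data) and 0 over 2-fold. Of the 13 members with 1 RefSeq transcript, 5 fell (38.5%) and 1 rose (7.69%). Of the 18 tested with several, 3 fell (16.7%) and 1 rose (5.56%), against 17.5% and 16.1% of all genes. The number that fell over 2-fold was 0. Of the amino acid response synthetases, from 1 to 2 rose without 1 library and 1 without shUSP39 2 and 3. Of the accessory genes, from 2 to 3 fell without 1 library, and without shUSP39 2 and 3 together 1 fell and 0 rose. Of the elongation factors, 4 rose with upper-quartile scaling, 1 with no filter, 1 in each fit without 1 library and 0 without shUSP39 2 and 3, and from 0 to 1 fell without 1 library. Of the interferon genes, 3 rose without shUSP39 2 and 3. The number of synthetase transcripts that rose ran from 1 to 3 without 1 library. Counts without shUSP39 2 and 3 come from a fit that called fewer genes of all, and are not comparable with the main fit.

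The cytosolic median was -0.030 with upper-quartile scaling, -0.11 without shUSP39 2 and 3, and from -0.13 to -0.027 without 1 library. The mitochondrial median was -0.059 with upper-quartile scaling, -0.16 without shUSP39 2 and 3, -0.25 by summed CPM, -0.061 with 1 RefSeq transcript, and from -0.17 to -0.086 without 1 library. Their difference was 0.15 by summed CPM, -0.024 with 1 RefSeq transcript, and from -0.020 to 0.13 without 1 library.

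Only genes that did not pass changed sign. Across fits without 1 library, log2 fold changes ran from -0.044 to 0.16 in EARS2, from -0.25 to 0.052 in FARS2, from -0.20 to 0.14 in GARS, from -0.089 to 0.0012 in KARS, from -0.14 to 0.030 in NARS2, from -0.13 to 0.077 in PARS2, from -0.35 to 0.16 in SARS and from -0.028 to 0.022 in YARS. Without shUSP39 2 and 3 the values were -0.033 in EARS2, 0.23 in FARS2, -0.10 in GARS, 0.060 in PARS2 and 0.019 in YARS2. With upper-quartile scaling they were 0.010 in FARSA, 0.0036 in KARS and 0.040 in PARS2. With library size only PARS2 had 0.020, and with limma-voom PARS2 had 0.013 and GARS -0.015. With the highest transcript only FARS2 had 0.094 and PARS2 0.00078, and with no filter YARS had -0.0039.

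Samples with the same replicate number did not deviate together (correlations of 0.0856, 0.0120 and 0.0249), so the numbers were not taken as pairs. With the replicate block 2 synthetase genes rose and 9 fell, 1904 and 2077 genes of all changed, and GARS had a log2 fold change of -0.0028 and PARS2 of 0.0032. Low counts limit WARS2, SARS and HARS2 most, with standard errors of 0.53, 0.39 and 0.29, and the reason for the low counts was not tested.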

Other observations

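The E-box letters CACGTG, the core site of MYC and related factors, occur in 7.26% of the 35116 RefSeq promoters and in a promoter of 8.77% of 27305 genes. They were found in 4 of the 27 matched synthetase genes, CARS2, EARS2, IARS and MARS2. CARS2 fell by 0.44, and the log2 fold changes of EARS2, IARS and MARS2 were 0.05, -0.20 and 0.12 without a call.

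MARS overlaps exons of DDIT3, which encodes the stress factor CHOP, on the opposite strand. MARS had 503 ± 3.91 CPM in pGIPZ-NC against 515 ± 8.47 CPM in shUSP39, and DDIT3 had 1.76 ± 0.23 and 2.60 ± 0.47 CPM (SD, n = 3 each), with log2 fold changes of 0.03 and 0.56 (adjusted p 0.112 for DDIT3). Each MARS library of shUSP39 was above each of pGIPZ-NC, although the difference did not pass the test.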
